A study of Homo sapiens with 12 samples.

Results

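The G2/M and mitosis genes described here are 40 genes whose products carry a cell from the end of DNA replication through chromosome segregation and cytokinesis. They were taken by gene symbol from a list whose rule used no measured value, though it was drawn up with earlier results of these data known, and all 40 were found among the 60664 genes of the count table. Cell cycle genes of this kind are largely transcribed from late S phase to mitosis under the MuvB complex with B-MYB (MYBL2) and FOXM1, and are silenced in resting cells by the DREAM complex, which p53 engages through p21. Their proteins act in sequence, as cyclin B and CDK1 start mitosis, the spindle checkpoint holds the anaphase-promoting complex until chromosomes are attached, and motor and bundling proteins then divide the cell. MKI67, TOP2A and others among them serve as proliferation markers in breast cancer.

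The libraries were made from MDA-MB-231, a triple-negative, basal-like human breast cancer line with mutant p53. The 12 libraries comprise 4 of WT cells in normoxia, 4 of WT cells after hypoxia for 24 hr, and 4 of CCAR2-/- (CCAR2 KO) cells in normoxia. CCAR2 encodes DBC1, a nuclear inhibitor of the deacetylase SIRT1. According to the methods, hypoxia was 1% O2 in a flushed chamber and KO cells were made with LentiCRISPR, while whether they are a single clone is not given in the sources used here. KO cells under hypoxia were not analysed here. The first comparison asks what low oxygen does to WT cells, the second what loss of CCAR2 does in normoxia, and the third sets KO cells directly against WT cells in hypoxia. The methods speak of biological replicates, in other numbers than the 4 libraries per group here, and the labels do not tie the libraries to separate cultures, so the p-values measure only the spread between these libraries, which may be technical. In bulk RNA, fewer dividing cells and less RNA per dividing cell cannot be told apart.

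The sums of estimated counts ranged from 68599412 to 213743693 per library, and the lowest value of a member in any library was 1628, for CDC25C, so counting error was small for every member. CCAR2 itself was at 149 ± 2.19 CPM (counts scaled by TMM to a common library size, mean ± SD, n = 4) in WT normoxia, 148 ± 5.72 in WT hypoxia and 57.2 ± 2.74 in KO cells. The 7 markers of basal-like MDA-MB-231 cells were all at 1 CPM or more and summed to between 7700 and 9000 CPM. VIM alone was at 5200 CPM in WT normoxia. The 7 luminal markers summed to between 13.5 and 22.4 CPM, and 3 of them reached 1 CPM in WT normoxia and KO cells and 2 in WT hypoxia. In WT normoxia the basal marker SNAI2, at 3.87 CPM, was below the luminal markers ERBB3 at 10.9 and GATA3 at 6.04. Of 4 leukocyte markers, only CD68 reached 1 CPM, at 95.7 CPM in WT normoxia, 105 in WT hypoxia and 77.0 in KO cells, and PTPRC, which defines leukocytes, stayed at or under 0.238 CPM. The 3 endothelial markers summed to between 6.8 and 10.9 CPM, and 2 of them reached 1 CPM in each group. Of these, PECAM1 was at 2.6 CPM in WT normoxia and 5.46 in KO cells. WT hypoxia replicate 2 stood apart from the other hypoxia libraries, in that chi-square over its degrees of freedom was at least 69.7 in each pair with it and at most 39.8 in pairs of the other 3. It was the highest hypoxia library for 28 of the 40 members, and counts and calls of the members that it decides are therefore also given without it. In WT normoxia, replicate 1 was at 64.9 and 63.6 in its pairs with replicates 2 and 3, and at 37.6 with replicate 4. Pairs of the other normoxia libraries were between 22.8 and 43.6. Replicate 1 was the highest normoxia library for 19 members.

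Both WT hypoxia and KO cells carried a smaller share of RNA from these genes than WT cells in normoxia. Summed over the 40 members, the level was 10120, 9868, 9896 and 9269 CPM in the 4 WT normoxia libraries. It stood at 8101, 8539, 8182 and 7947 CPM in hypoxia and 8649, 8435, 8183 and 8401 CPM in KO cells. Every hypoxia and KO library thus lay below every WT normoxia library, and the hypoxia and KO groups overlapped each other. WT normoxia replicate 4 was the lowest of its group for 31 members, and KO replicates 1 and 3 were the highest and the lowest of theirs for 23 members each.

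In hypoxia, 23 of the 40 members fell and 1 rose at an adjusted p under 0.05, against 12% of all genes tested that fell and 11.6% that rose (edgeR quasi-likelihood test, Benjamini-Hochberg over 21776 genes). The shifts were small: the log2 fold changes ranged from -0.47 for TTK to 0.32 for MYBL2 with a median of -0.24, while the median of all genes tested was 0.01. No member passed both that test and an absolute log2 fold change of 0.5, which 7.26% of all genes did. The 4 hypoxia libraries lay wholly below the 4 normoxia libraries for 22 members, where 16% of all genes did so, and wholly above for 1, against 11.6%. Without hypoxia replicate 2 the number that fell was 33, or 82.5%, against 16.2% of all genes in that fit. There 1 member, TTK at -0.51, passed 0.5. The 10 members added were CCNB2, CDK1, CDC25C, CKS2, BIRC5, UBE2C, PTTG1, CENPA, NDC80 and KIF2C. Without hypoxia replicate 4 the number was 17.

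In CCAR2 KO cells, 29 members fell and 1, CDC25B, rose, against 15.4% and 14.9% of the 21410 genes tested. The log2 fold changes ran from -0.55 for HMGB2 to 0.16 for CDC25B, with a median of -0.19 beside 0.01 for all genes. Only HMGB2 also passed 0.5, which 9.67% of all genes did. KO libraries lay wholly below WT normoxia libraries for 30 members and wholly above for 1, against 18.4% and 13.3% of all genes. On leaving out 1 library at a time, between 23 and 28 of these 29 members still passed as lower. The WT normoxia libraries are shared by the 2 comparisons, which are therefore not independent of each other.

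**Figure D1:**
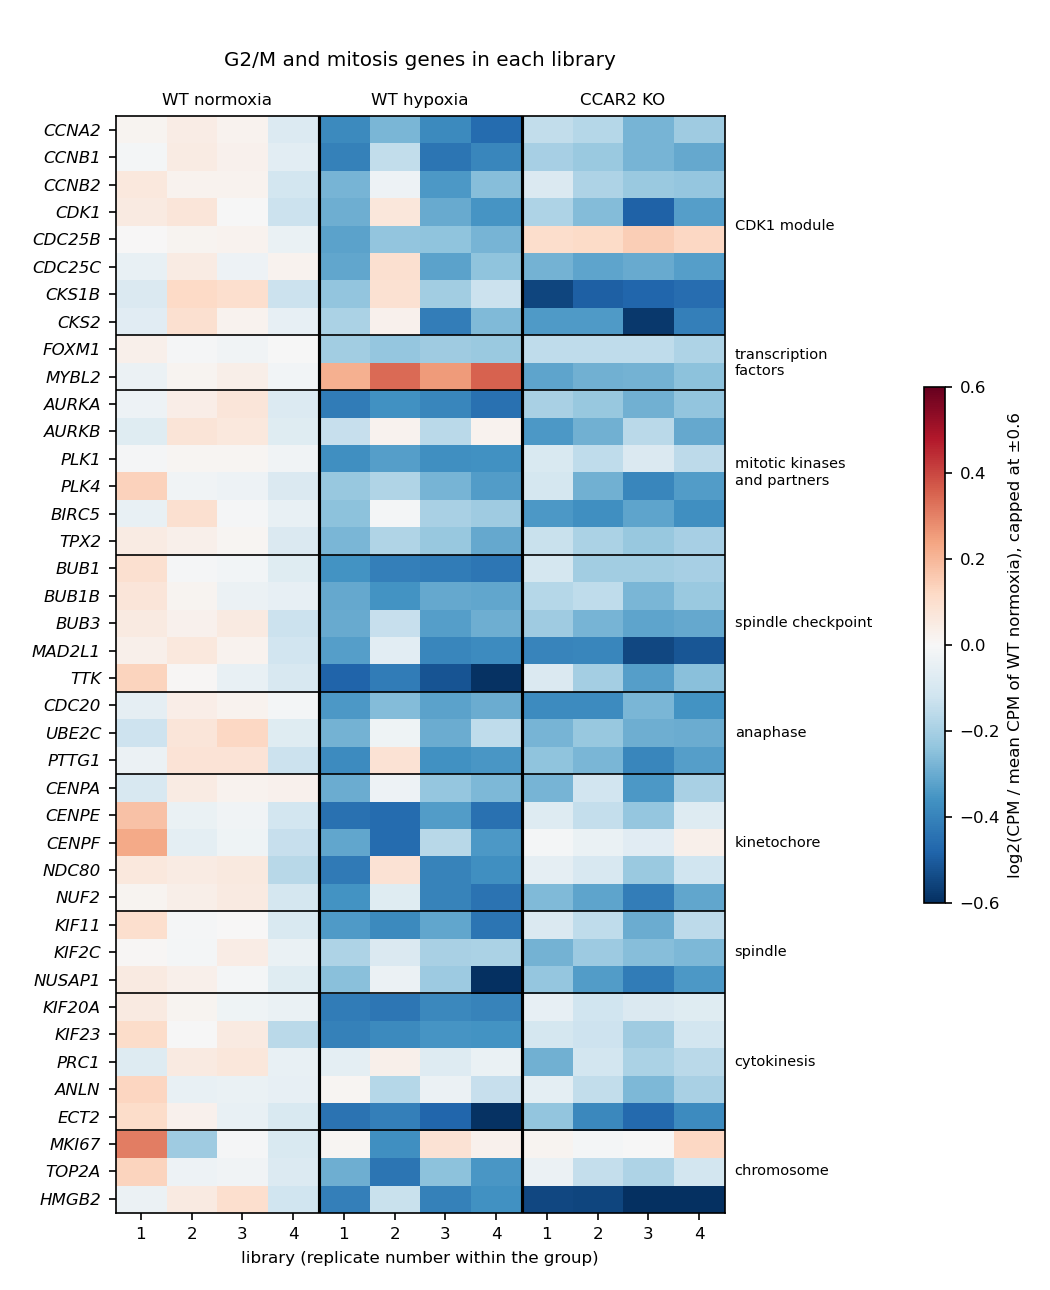
Level of each of the 40 members (rows, grouped by role) in each of the 12 libraries (columns), as log2 of the CPM over the mean CPM of the 4 WT normoxia libraries, with blue for lower and red for higher and colours capped at 0.6 either way. Most rows are blue in hypoxia and in KO cells, MYBL2 is clearly red only in hypoxia, CDC25B only in KO cells, and hypoxia replicate 2 is paler than its group in many rows.

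The CDK1 module holds the mitotic kinase and what turns it on. In hypoxia 3 of its 8 members fell, or 7 without hypoxia replicate 2, and in KO cells 7 fell and 1 rose. CCNB1, the cyclin that takes CDK1 into mitosis, was at 411, 428.5, 422 and 397 CPM in WT normoxia, 313, 374, 306 and 316 CPM in hypoxia and 361, 355, 341 and 335 CPM in KO cells. All hypoxia and KO libraries were below the normoxia range, with hypoxia replicate 2 nearest to it. CCNB1 fell by 0.31 ± 0.070 on the log2 scale (± SE of the fit) in hypoxia (adjusted p = 0.0084) and by 0.21 ± 0.041 in KO cells (adjusted p = 0.00187). CCNA2, the cyclin of S phase and G2, fell by 0.34 ± 0.055 in hypoxia and by 0.16 ± 0.042 in KO cells, and was higher in KO cells than in hypoxia by 0.17 ± 0.053 (adjusted p = 0.0303, lost on leaving out any 1 of 6 libraries). CCNA2 overlaps EXOSC9 on the other strand, at 65.5 CPM.

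CDK1 itself was at 256, 259, 246 and 225 CPM in WT normoxia, 200.4, 258, 199 and 192 CPM in hypoxia and 216, 205, 175 and 196 CPM in KO cells. The KO libraries were all below normoxia, whereas hypoxia replicate 2 was within the normoxia range and the other 3 hypoxia libraries were below it. CDK1 fell by 0.27 ± 0.062 in KO cells (adjusted p = 0.00548). In hypoxia its log2 fold change was -0.18 ± 0.092 with an adjusted p of 0.188, and without hypoxia replicate 2 it was -0.30 with an adjusted p of 0.0016.

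CKS1B and CKS2 encode the small subunits that bind CDK1 and dock its substrates. CKS1B was at 209.7, 242, 239 and 204 CPM in WT normoxia, 189.5, 237, 193 and 204 CPM in hypoxia and 152, 159, 160.2 and 162 CPM in KO cells, so that the KO libraries lay below all 8 WT libraries while the WT groups overlapped. It fell by 0.46 ± 0.057 in KO cells (adjusted p = 7.4e-05), and its log2 fold change in hypoxia was -0.089 ± 0.084 (adjusted p = 0.502). The direct test put it lower in KO cells than in hypoxia, at a log2 fold change of -0.38 ± 0.070 (adjusted p = 0.00145). The table lists 7 pseudogenes of CKS1B, which together held 4.79 CPM or 2.45% of its level, and reads could be split with them. CKS2 fell by 0.38 ± 0.059 in KO cells (adjusted p = 0.00043).

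The CDC25 phosphatases remove the inhibitory phosphates from CDK1, and CDC25B and CDC25C did not move alike. CDC25B (chr20:3786772-3806121) was at 225, 227, 228 and 219 CPM in WT normoxia, 179.6, 190.4, 190.3 and 185 CPM in hypoxia and 242, 244, 249 and 245 CPM in KO cells. The 3 groups did not overlap, with hypoxia lowest and KO cells highest. It fell by 0.24 ± 0.044 in hypoxia (adjusted p = 0.00298), rose by 0.16 ± 0.034 in KO cells (adjusted p = 0.00286) and was 0.39 ± 0.042 higher in KO cells than in hypoxia (adjusted p = 3.1e-05), the largest positive difference of any member there. CDC25C was at 27.7, 29.6, 27.9 and 28.9 CPM in WT normoxia, 23.0, 30.5, 22.9 and 24.1 CPM in hypoxia and 23.4, 22.9, 23.1 and 22.7 CPM in KO cells. It fell by 0.27 ± 0.050 in KO cells (adjusted p = 0.00135), and hypoxia replicate 2 again lay above its group. Its adjusted p in hypoxia was 0.264, and 0.00288 without that library. CDC25C overlaps FAM53C on the other strand, which at 93.4 CPM was above its own level.

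The module's transcription factors parted in hypoxia. MYBL2 (chr20:43667019-43716496, GRCh38 as annotated in GENCODE v29, since the build of the files is not given in the sources used here) encodes B-MYB, which joins MuvB to switch these genes on. It was at 207, 215, 218 and 209.8 CPM in WT normoxia, 246, 268, 253 and 271 CPM in hypoxia and 171, 174, 174.5 and 179 CPM in KO cells. All hypoxia libraries were above and all KO libraries below the normoxia range. MYBL2 rose by 0.32 ± 0.049 in hypoxia (adjusted p = 0.00104), the only member to rise, and fell by 0.24 ± 0.037 in KO cells (adjusted p = 0.00033). KO cells were lower than WT hypoxia at a log2 fold change of -0.57 ± 0.047 (adjusted p = 3.7e-06), a level 32.9% lower. FOXM1, the forkhead factor of G2/M transcription, was at 445, 433, 429 and 435 CPM, 377, 371, 376 and 373 CPM and 392, 391, 391.5 and 383 CPM in the same order of groups, which did not overlap. It fell by 0.19 ± 0.043 in hypoxia (adjusted p = 0.00906) and by 0.12 ± 0.035 in KO cells (adjusted p = 0.0205, a call lost without KO replicate 4). FOXM1 overlaps RHNO1 and ITFG2 on the other strand, at 60.9 and 15.5 CPM, and the sources do not say that counting used strand.

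**Figure D2:**
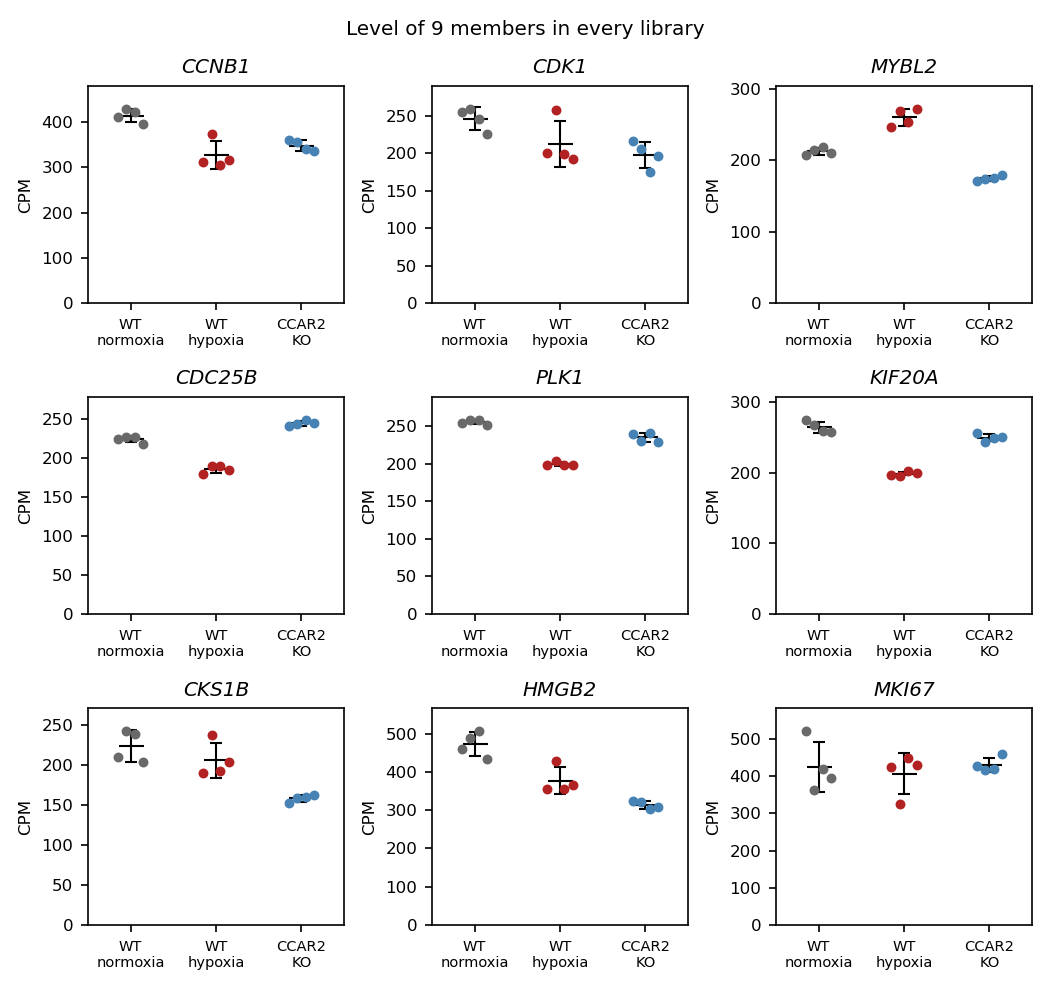
Level of 9 members in CPM (y axis from 0) for each library (points) with the mean and SD of the 4 libraries of a group (black). MYBL2 is highest in hypoxia and lowest in KO cells, CDC25B the reverse, PLK1 and KIF20A are lowest in hypoxia, CKS1B and HMGB2 are lowest in KO cells, and MKI67 overlaps in all 3 groups.

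Among the mitotic kinases and their partners, 4 of 6 fell in hypoxia (5 without hypoxia replicate 2) and 5 of 6 in KO cells. PLK1, which drives mitotic entry, centrosome maturation and cytokinesis, was at 254.5, 258, 258 and 252 CPM in WT normoxia, 198, 203, 198 and 198.5 CPM in hypoxia and 239.8, 230.2, 241 and 229 CPM in KO cells. The groups did not overlap, and the hypoxia libraries were the lowest. PLK1 fell by 0.33 ± 0.043 in hypoxia (adjusted p = 0.00048), and its log2 fold change in KO cells was -0.081 ± 0.034 (adjusted p = 0.098). The difference between KO cells and hypoxia, 0.23 ± 0.041, passed the test (adjusted p = 0.00102). AURKA, the centrosome and spindle kinase, was at 264, 277, 283 and 254 CPM in WT normoxia, 201, 209.6, 205 and 198 CPM in hypoxia and 235, 230.3, 220.5 and 229 CPM in KO cells, with no overlap between groups. It fell by 0.38 ± 0.050 in hypoxia (adjusted p = 0.00054) and by 0.20 ± 0.043 in KO cells (adjusted p = 0.00369), and its activator TPX2 fell by 0.22 ± 0.052 and 0.15 ± 0.040.

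AURKB and BIRC5 (survivin) are subunits of the chromosomal passenger complex, which corrects faulty attachments and guides cytokinesis. AURKB was at 172, 191, 189 and 172 CPM in WT normoxia, 164, 183, 162 and 183 CPM in hypoxia and 142, 148, 161 and 146 CPM in KO cells, with all KO libraries below normoxia and the hypoxia libraries overlapping it. It fell by 0.24 ± 0.051 in KO cells (adjusted p = 0.00376), while in hypoxia its log2 fold change was -0.034 ± 0.061 (adjusted p = 0.753). BIRC5 was at 149, 165, 154 and 149 CPM, 130.2, 153, 135 and 133 CPM and 121.5, 119, 124 and 119.7 CPM, and fell by 0.31 ± 0.040 in KO cells (adjusted p = 9.1e-05). Both were lower in KO cells than in hypoxia, AURKB at a log2 fold change of -0.21 ± 0.060 (adjusted p = 0.0163) and BIRC5 at -0.19 ± 0.056 (adjusted p = 0.0218). Each of these 2 differences was lost on leaving out KO replicate 1 or KO replicate 4, that of AURKB also without hypoxia replicate 4 and that of BIRC5 also without KO replicate 2. In hypoxia BIRC5 had an adjusted p of 0.157, and of 0.00863 without hypoxia replicate 2. PLK4, the kinase of centriole duplication, fell by 0.23 ± 0.060 in hypoxia (lost without hypoxia replicate 3 or 4) and 0.24 ± 0.063 in KO cells.

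All 5 spindle checkpoint genes fell in both comparisons. BUB1, a checkpoint kinase of the kinetochore, was at 230.0, 214, 212.5 and 204 CPM in WT normoxia, 168, 162, 161 and 159 CPM in hypoxia and 200.2, 186, 186 and 187 CPM in KO cells. The groups did not overlap, with hypoxia lowest. It fell by 0.38 ± 0.049 in hypoxia (adjusted p = 0.00046) and by 0.14 ± 0.041 in KO cells (adjusted p = 0.0212, lost without KO replicate 4). TTK (chr6:80003887-80042527), the kinase that starts checkpoint signalling, was at 80.1, 73.3, 70.7 and 68.1 CPM, 52.3, 54.5, 50.9 and 48.4 CPM and 68.7, 63.4, 58.0 and 61.4 CPM. It fell by 0.47 ± 0.062 in hypoxia (adjusted p = 0.00048), or to a level 27.9% lower, the largest change among the 40 members there. In KO cells it fell by 0.18 ± 0.058 (adjusted p = 0.0368, lost on leaving out any 1 of 5 libraries), with KO replicate 1 inside the normoxia range. Both kinases were higher in KO cells than in hypoxia, BUB1 by 0.22 ± 0.044 (adjusted p = 0.00208) and TTK by 0.28 ± 0.061 (adjusted p = 0.00378).

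MAD2L1, which binds and restrains CDC20, was at 179.5, 184, 178 and 163 CPM in WT normoxia, 139.9, 168, 134 and 135 CPM in hypoxia and 134, 134, 120.4 and 123 CPM in KO cells. KO libraries lay below normoxia and touched the lowest hypoxia library, and hypoxia replicate 2 reached into the normoxia range. It fell by 0.42 ± 0.050 in KO cells (adjusted p = 4.8e-05) and by 0.26 ± 0.078 in hypoxia (adjusted p = 0.0351), the latter lost on leaving out any 1 of 6 libraries. BUB1B, the BubR1 subunit of the checkpoint complex, fell by 0.29 ± 0.044 and 0.17 ± 0.042 in hypoxia and KO cells, and its partner BUB3 by 0.23 ± 0.061 and 0.24 ± 0.045. The call of BUB3 in hypoxia was lost on leaving out any 1 of 4 libraries.

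The anaphase genes encode CDC20, the activator of the anaphase-promoting complex, UBE2C, its ubiquitin-conjugating enzyme, and PTTG1 (securin), its substrate. CDC20 was at 362, 386, 381 and 373 CPM in WT normoxia, 295, 313, 300.1 and 305 CPM in hypoxia and 289.5, 289, 310.4 and 293 CPM in KO cells. Both groups lay wholly below normoxia and overlapped each other. CDC20 fell by 0.28 ± 0.047 in hypoxia (adjusted p = 0.00196) and by 0.31 ± 0.040 in KO cells (adjusted p = 0.00011), and their difference was -0.040 ± 0.045 with a 95% confidence interval from -0.14 to 0.059. UBE2C and PTTG1 fell in KO cells by 0.24 ± 0.056 and 0.27 ± 0.052. In hypoxia their log2 fold changes were -0.16 ± 0.077 and -0.21 ± 0.10, with adjusted p of 0.166 and 0.177, and without hypoxia replicate 2 they were -0.23 and -0.35, with adjusted p of 0.0231 and 0.000896. PTTG1 in hypoxia was at 138, 190.0, 139 and 140.4 CPM, so that replicate 2 was level with the highest normoxia library while the other 3 were below them all.

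At the kinetochore, 3 of 5 genes fell in hypoxia, or all 5 without hypoxia replicate 2, and 2 of 5 in KO cells. CENPE, the motor that brings chromosomes to the equator, was at 130.5, 112.5, 114 and 107 CPM in WT normoxia, 84.7, 83.9, 91.8 and 84.9 CPM in hypoxia and 109.5, 105, 98.5 and 109.7 CPM in KO cells. Hypoxia libraries were below all others, and KO libraries overlapped normoxia. CENPE fell by 0.40 ± 0.061 in hypoxia (adjusted p = 0.00119), and its log2 fold change in KO cells was -0.095 ± 0.056 (adjusted p = 0.241). CENPF, a large protein of the outer kinetochore, fell by 0.29 ± 0.081 in hypoxia (adjusted p = 0.0217, lost without hypoxia replicate 4) and stood at 0.012 ± 0.064 in KO cells (adjusted p = 0.911). Both were higher in KO cells than in hypoxia, CENPE by 0.29 ± 0.051 (adjusted p = 0.001) and CENPF by 0.30 ± 0.060 (adjusted p = 0.00257). NUF2, of the microtubule-binding NDC80 complex, fell by 0.28 ± 0.082 and 0.29 ± 0.045 in hypoxia and KO cells, and its partner NDC80 passed neither test at -0.23 ± 0.11 and -0.086 ± 0.054. The hypoxia call of NUF2 (adjusted p = 0.0287) was lost on leaving out any 1 of 6 libraries, and NDC80 stood at -0.38 in hypoxia without replicate 2 (adjusted p = 0.000606). CENPA, the centromeric histone, fell by 0.19 ± 0.064 in KO cells (adjusted p = 0.0384, lost on leaving out any 1 of 6 libraries). It shares its strand with SLC35F6, at 32.7 CPM.

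Of the spindle genes, KIF11, the motor that pushes the spindle poles apart, was at 188, 174.5, 176 and 165 CPM in WT normoxia, 139, 135, 142 and 129.5 CPM in hypoxia and 166, 158, 143 and 158 CPM in KO cells. Hypoxia libraries were the lowest, and KO replicate 1 was the only KO library within the normoxia range. KIF11 fell by 0.34 ± 0.053 in hypoxia (adjusted p = 0.00123) and had a log2 fold change of -0.13 ± 0.051 in KO cells (adjusted p = 0.0681). KIF2C, a depolymerase that corrects attachments, fell by 0.22 ± 0.037 in KO cells, with -0.13 ± 0.049 in hypoxia (adjusted p = 0.0714, and 0.00853 without hypoxia replicate 2).

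NUSAP1, which bundles spindle microtubules, had 1 library far from the others. It was at 213, 210.2, 204 and 195.5 CPM in WT normoxia, 173, 201, 177 and 51.2 CPM in hypoxia and 175, 163, 154 and 162 CPM in KO cells, with hypoxia replicate 4 the low one. A gene listed by identifier alone, ENSG00000285920, spans NUSAP1 (chr15:41332694-41381050) on the same strand from 41284013 to 41380743, and was at 133 CPM in that library and at 0 in the other hypoxia libraries. Summed with that gene, NUSAP1 was at 207 ± 5.25, 184 ± 12.4 and 165 ± 9.41 CPM (SD, n = 4), and hypoxia replicate 4 at 184 CPM lay within its group. The summed values fell by 0.29 ± 0.043 in KO cells (adjusted p = 0.000283), and had a log2 fold change of -0.14 ± 0.056 in hypoxia (adjusted p = 0.0875). The gene's own value in hypoxia, -0.42 ± 0.31, is therefore not read as a change.

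In cytokinesis, 3 of 5 genes fell in hypoxia and 2 of 5 in KO cells. KIF20A, a motor of the central spindle, was at 274, 267, 259.5 and 257 CPM in WT normoxia, 197, 196, 202 and 200.0 CPM in hypoxia and 256, 243, 249 and 251 CPM in KO cells. The groups did not overlap, with hypoxia the lowest. It had the lowest adjusted p of the members in hypoxia, where it fell by 0.38 ± 0.043 (adjusted p = 0.00019), and a log2 fold change of -0.043 ± 0.034 in KO cells (adjusted p = 0.401). KO cells were 0.33 ± 0.040 above hypoxia (adjusted p = 7.5e-05). KIF20A overlaps the ends of BRD8 and CDC23 on the other strand, at 124 and 55.1 CPM. KIF23, the other central spindle motor, fell by 0.35 ± 0.055 in hypoxia and was 0.24 ± 0.043 higher in KO cells than in hypoxia.

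ECT2, the exchange factor that activates RhoA for the contractile ring, was at 340.3, 320.5, 306 and 296 CPM in WT normoxia, 232, 237, 227 and 209 CPM in hypoxia and 268, 241, 228 and 243 CPM in KO cells. All 8 hypoxia and KO libraries were below normoxia. It fell by 0.45 ± 0.060 in hypoxia (adjusted p = 0.00055) and by 0.33 ± 0.053 in KO cells (adjusted p = 0.00055). ANLN, the anillin scaffold of that ring, was at 450.5, 399.7, 400.3 and 398 CPM, 414, 365.5, 402 and 374 CPM and 395, 372, 342 and 360.2 CPM, with KO libraries just below and hypoxia libraries across the normoxia range. It passed neither test, with log2 fold changes of -0.053 ± 0.060 (adjusted p = 0.586) and -0.13 ± 0.053 (adjusted p = 0.0949). PRC1, the bundler of antiparallel microtubules, fell by 0.15 ± 0.051 in KO cells (adjusted p = 0.0484) and had a log2 fold change of -0.15 ± 0.053 against hypoxia (adjusted p = 0.0443). The first call was lost on leaving out any 1 of 6 libraries and the second any 1 of 7. It shares its strand with ENSG00000284946, at 62.4 CPM, and summed with it the fall in KO cells was 0.15 ± 0.036 (adjusted p = 0.00721) and the difference from hypoxia was -0.035 ± 0.042 (adjusted p = 0.575). In hypoxia the log2 fold change of PRC1 was -0.0062 ± 0.053 (adjusted p = 0.951), and -0.13 ± 0.048 when summed (adjusted p = 0.0827).

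Of the 3 chromosome genes, 2 fell in hypoxia and 1 in KO cells. HMGB2 (chr4:173331695-173335125), a DNA-bending protein abundant in dividing cells, was at 460.3, 489.7, 506 and 434 CPM in WT normoxia, 355, 429.7, 356 and 367 CPM in hypoxia and 323, 322, 303 and 309 CPM in KO cells. The groups did not overlap, with KO cells lowest, and hypoxia replicate 2 was close to the normoxia range. HMGB2 fell by 0.55 ± 0.051 in KO cells (adjusted p = 6.4e-06), to a level 31.6% lower, fell by 0.30 ± 0.075 in hypoxia (adjusted p = 0.0152, lost on leaving out any 1 of 3 libraries), and stood at -0.26 ± 0.066 in KO cells against hypoxia (adjusted p = 0.00906). TOP2A, the topoisomerase that untangles sister chromatids, had the highest CPM of the members, at 926, 829, 834 and 798 CPM in WT normoxia, 690.2, 624, 713 and 663 CPM in hypoxia and 826, 766, 743 and 783 CPM in KO cells. Hypoxia libraries were below all others, and KO replicate 1 reached into the normoxia range. It fell by 0.30 ± 0.060 in hypoxia (adjusted p = 0.00447), and its log2 fold change in KO cells was -0.080 ± 0.050 (adjusted p = 0.274).

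MKI67, which encodes the proliferation marker Ki-67 that coats mitotic chromosomes, did not pass any test. It was at 521, 363.5, 419 and 395.5 CPM in WT normoxia, 425, 326, 447.5 and 429 CPM in hypoxia and 426, 417.5, 420.3 and 459 CPM in KO cells. The 3 groups overlapped, and the spread within normoxia was wide. The log2 fold change was -0.032 ± 0.11 in hypoxia (95% confidence interval from -0.28 to 0.22, adjusted p = 0.882) and 0.061 ± 0.086 in KO cells (from -0.13 to 0.25, adjusted p = 0.655). The interval in hypoxia includes the median of the members, -0.24, and the interval in KO cells does not include theirs, -0.19. Without WT normoxia replicate 1 it was 0.17 higher in KO cells (adjusted p = 0.0437).

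**Figure D3:**
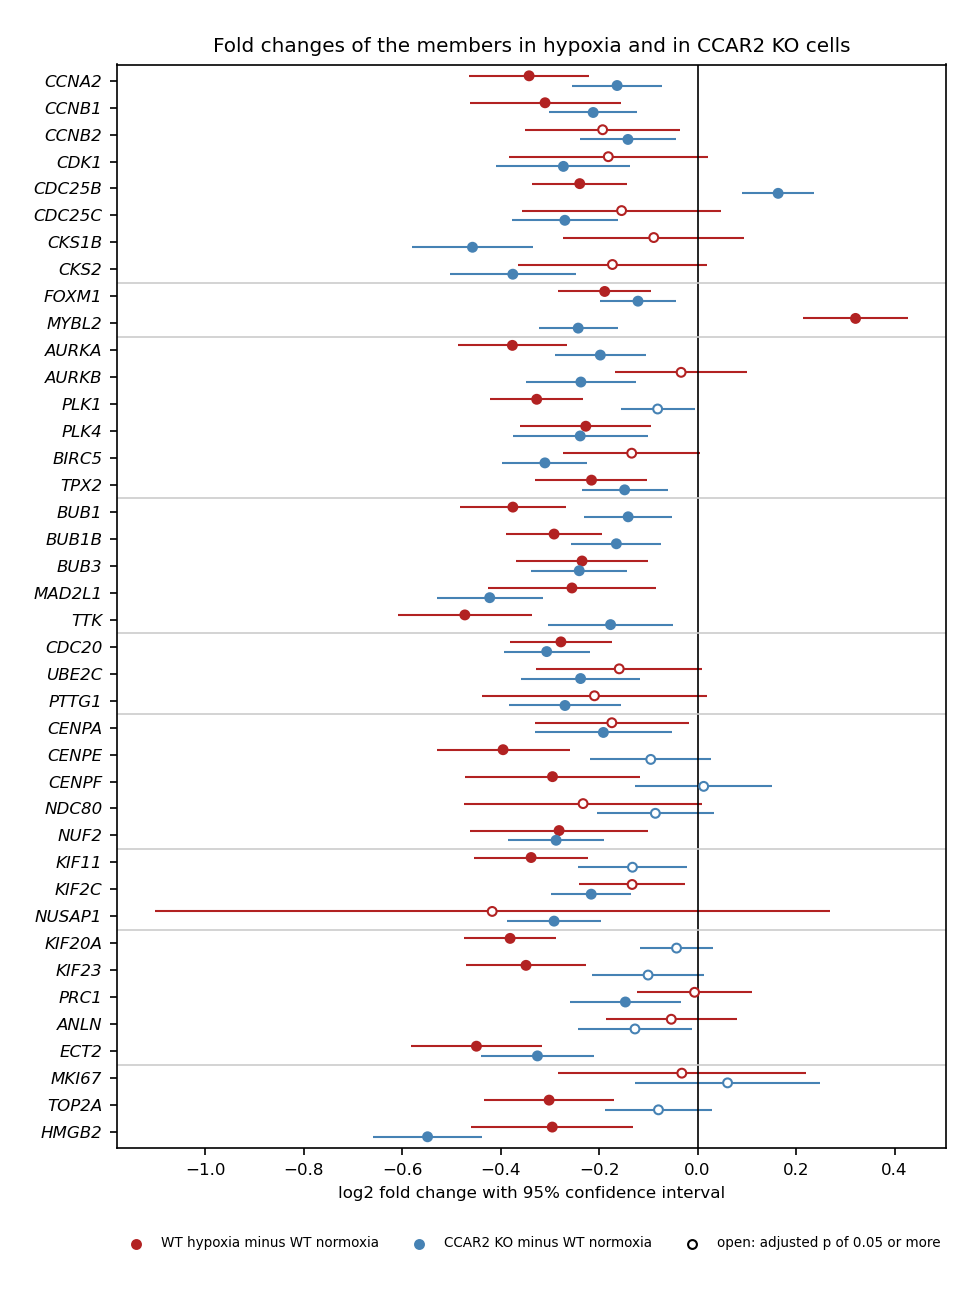
Log2 fold change (x axis) of each member with its 95% confidence interval in hypoxia (red) and in KO cells (blue), both against the 4 WT normoxia libraries, with filled points for an adjusted p under 0.05 and lines between roles. Filled points lie to the left of 0 except MYBL2 in hypoxia at 0.32 and CDC25B in KO cells at 0.16, and the widest interval is that of NUSAP1 in hypoxia.

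Whether a member responded differently in KO cells and in hypoxia was tested by setting the 4 KO libraries directly against the 4 hypoxia libraries. Of the 40 members, 6 were lower and 12 higher in KO cells, where 17.8% and 17.1% of the 21158 genes tested were. The share of members was thus close to or under the background for lower and above it for higher. The 6 lower were MYBL2, CKS1B, HMGB2, AURKB, BIRC5 and PRC1. The 12 higher were CDC25B, KIF20A, CENPF, CENPE, TTK, KIF23, PLK1, BUB1, TOP2A, KIF11, CCNA2 and AURKA. MYBL2 alone also passed 0.5, as 15% of all genes did. The median over the members was 0.05, beside -0.02 for all genes. The other 22 members did not pass, and for 3 of them with a like fall in each comparison, BUB3, NUF2 and PLK4, the 95% confidence intervals of the difference reached from -0.14 to 0.10, from -0.19 to 0.16 and from -0.17 to 0.12. Since these 3 were picked for like falls, intervals around 0 followed from the choice, and only their width is informative. The count of lower members was 3 without KO replicate 1 and 3 without KO replicate 4. Without hypoxia replicate 2, 5 were lower and 14 higher, against 18.2% and 18.3% of all genes in that fit. Of the members, CCNB1 and NDC80 newly passed and PRC1 no longer did.

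The members were also compared by the length of their transcripts. They were split at the middle by the mean length of their protein-coding transcripts in GENCODE v29. Of the 20 shorter ones, from 613 to 1730 bases, 7 fell in hypoxia and 18 in KO cells. Of the 20 longer ones, from 1829 to 12048 bases, 16 fell and 1 rose in hypoxia, and 11 fell and 1 rose in KO cells. The split in hypoxia rests on hypoxia replicate 2, without which 17 of the shorter and 16 of the longer members fell. Between KO cells and hypoxia, 5 shorter members were lower and 3 higher, against 1 lower and 9 higher among the longer. Without hypoxia replicate 2, 4 shorter members were lower and 5 higher, and the counts of the longer were again 1 and 9. Across the 40 members, Spearman's rho of the log2 fold change with length was -0.298 in hypoxia, 0.423 in KO cells and 0.478 between KO cells and hypoxia. Over all genes with a length it was -0.103, 0.111 and 0.166. Without hypoxia replicate 2 the rho over the members was -0.036 in hypoxia and 0.35 between KO cells and hypoxia. These are descriptions over genes measured in the same libraries, and what lies behind them was not tested. When the trend of all genes with length was removed, 30 members fell in hypoxia and 32 in KO cells, and 5 were lower and 10 higher between them. Fold changes in hypoxia also went with GC content, with a rho of 0.473 over the members and 0.322 over all genes, and with that trend removed 18 members fell in hypoxia, 31 fell in KO cells, and 9 were lower and 8 higher between them.

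Levels between genes were compared per kilobase of merged exons. These exceed the mean transcript length unevenly, as in HMGB2 (2775 against 1181 bases) and CDC20 (2038 against 1726), so the order depends on the length used. In WT normoxia they ran from 8.55 ± 0.262 for CDC25C to 238.5 ± 19.3 for UBE2C (CPM per kilobase, mean ± SD, n = 4). Next to UBE2C came CDC20 at 184 ± 5.16, HMGB2 at 170.3 ± 11.5 and CKS2 at 169 ± 8.78, of which HMGB2 and CKS2 differed by less than their spread. At the low end, above CDC25C, came CENPE at 12.3 ± 1.07, then TTK at 15.9 ± 1.13 and PLK4 at 16.0 ± 1.11, which differed from each other by less than their spread.

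The promoters of these genes are known for CCAAT boxes, bound by NF-Y, and for the cell cycle homology region (CHR), bound by MuvB. RefSeq promoter sequences (GRCh38.p14, from 250 bases before to 50 after the start) were held for 32 of the 40 members. CCAAT was found on either strand in 22 of the 32 (68.8%), beside 35.7% of the 27305 promoters in the table, and the CHR letters TTTGAA in 21 (65.6%), beside 15.4%. Both were in 16 (50%), beside 6.1%, and at least 2 CCAAT in 14 (43.8%), beside 11.3%. Among the 21 members with a promoter that fell in KO cells, 15 held CCAAT and 13 held TTTGAA, and of the other 11, 7 and 8 did. A match is a description of letters and not a bound site. The parts before the first exon are printed for CDC20 (chr1:43358731-43358954), ECT2 (chr3:172750476-172750681) and CKS1B (chr1:154974431-154974652), all on the plus strand, because these had the largest falls in KO cells among the members chosen by the rule for named genes, where such a stretch could be read, with both motifs, on either strand, in capitals:
CDC20: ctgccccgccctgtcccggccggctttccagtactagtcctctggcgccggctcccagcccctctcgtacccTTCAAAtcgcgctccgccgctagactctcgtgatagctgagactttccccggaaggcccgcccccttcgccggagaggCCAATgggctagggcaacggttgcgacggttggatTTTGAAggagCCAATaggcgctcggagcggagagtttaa
ECT2: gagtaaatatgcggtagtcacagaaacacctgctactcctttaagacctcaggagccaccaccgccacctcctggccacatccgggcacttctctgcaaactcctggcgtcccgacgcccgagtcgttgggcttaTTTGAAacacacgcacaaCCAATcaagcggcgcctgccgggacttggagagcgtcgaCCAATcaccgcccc
CKS1B: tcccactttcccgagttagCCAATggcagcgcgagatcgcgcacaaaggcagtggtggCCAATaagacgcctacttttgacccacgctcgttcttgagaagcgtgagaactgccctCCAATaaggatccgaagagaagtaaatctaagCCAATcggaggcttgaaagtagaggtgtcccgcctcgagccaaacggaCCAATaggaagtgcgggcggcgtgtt
In CDC20 the CCAAT letters begin 100 and 55 bases before the start, with TTTGAA between them at 65, and a match on the other strand at 178. ECT2 has TTTGAA at 115 with CCAAT at 97 and 58, and further matches past the printed part. CKS1B has 5 CCAAT, at 231, 192, 134, 102 and 54, and its TTTGAA at 30 runs past the end of the printed part. CDC20 and ECT2 fell in both comparisons and CKS1B in KO cells, as given above.

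Other cell cycle genes were counted beside the 12% of all genes that fell and 11.6% that rose in hypoxia, and the 15.4% and 14.9% in KO cells. Of 63 other mitosis genes, 29 fell and 1 rose in hypoxia with a median of -0.21, and 39 fell in KO cells with a median of -0.18, close to the values of the members. In hypoxia 41 of them (65.1%) fell and 1 rose without hypoxia replicate 2, against 16.2% and 13.1% of all genes in that fit. VRK1, a chromatin kinase, fell by 0.59 ± 0.057 in KO cells (adjusted p = 9.3e-06), and CDCA2, a phosphatase subunit of mitotic chromosomes, by 0.52 ± 0.056 in hypoxia (adjusted p = 0.00015). SPC24, of the NDC80 complex, rose by 0.27 ± 0.076 in hypoxia (adjusted p = 0.026) and had a log2 fold change of -0.60 ± 0.070 in KO cells against hypoxia (adjusted p = 5.9e-05). Of 18 condensin and cohesin genes, 9 fell in hypoxia, and 8 fell and 1 rose in KO cells. WAPL, the cohesin release factor, fell by 0.51 ± 0.062 in hypoxia (adjusted p = 0.00029). The 15 genes of the anaphase-promoting complex, its subunits and the activator FZR1, had 2 lower and 1 higher in hypoxia, which is close to or under the share of all genes. In KO cells 7 were lower. Without hypoxia replicate 2, 5 of them (33.3%) were lower in hypoxia, against 16.2% of all genes in that fit.

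The G1/S genes, which act before these members in the cycle, gave other counts. Of 45, 2 fell and 5 rose in hypoxia (median 0.02), both under the share of all genes. Without hypoxia replicate 2, 7 fell and 6 rose (15.6% and 13.3%), close to the 16.2% and 13.1% of all genes in that fit. In KO cells 24 fell (median -0.14). Set directly against hypoxia, KO cells had 29 of them lower and 2 higher, with a median of -0.22. POLD1, the catalytic subunit of DNA polymerase delta, rose by 0.30 ± 0.054 in hypoxia (adjusted p = 0.0026) and had a log2 fold change of -0.55 ± 0.056 in KO cells against hypoxia (adjusted p = 2.3e-05). Among regulators in the DREAM, MuvB and NF-Y list, 6 of 16 fell and 1 rose in hypoxia, and 7 fell and 3 rose in KO cells. RBL2 (p130), the pocket protein of DREAM, rose by 0.26 ± 0.071 in hypoxia (adjusted p = 0.022) and by 0.39 ± 0.054 in KO cells (adjusted p = 0.00018). In hypoxia DYRK1A fell by 0.36 ± 0.060 (adjusted p = 0.0018) and RB1 by 0.28 ± 0.062 (adjusted p = 0.0079). LIN9, a MuvB subunit, fell there by 0.31 ± 0.065 (adjusted p = 0.0062). In KO cells TFDP1 fell by 0.41 ± 0.039 (adjusted p = 9.7e-06), and LIN54, which binds the CHR, by 0.39 ± 0.060 (adjusted p = 0.00036). DYRK1A rose there by 0.12 ± 0.039 (adjusted p = 0.03). Of 8 genes listed as CDK inhibitors by name, 6 were tested. Of these, 2 fell and 1 rose in hypoxia, and in KO cells 4 rose and only CDKN3 fell. CDKN1A (p21) rose by 0.37 ± 0.060 in hypoxia (adjusted p = 0.0015) and by 0.68 ± 0.047 in KO cells (adjusted p = 6.1e-07), and was 0.29 ± 0.050 higher in KO cells than in hypoxia (adjusted p = 0.00081). The 2 that fell in hypoxia were CDKN1B, by 0.28 ± 0.054 (adjusted p = 0.0042), and CDKN2D, by 0.20 ± 0.066 (adjusted p = 0.044). In KO cells CDKN1B rose by 0.15 ± 0.041 (adjusted p = 0.014) and CDKN3 fell by 0.44 ± 0.051 (adjusted p = 4.1e-05).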

How the data were processed

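RNA of MDA-MB-231 cells was sequenced in 12 libraries. The authors deposited estimated counts per gene, whole numbers not scaled to library size. According to the methods, the authors cleaned the reads, aligned them with Hisat2, quantified genes with StringTie and compared groups with DESeq2, whereas the submitters' processing notes name HISAT2, SAMtools and featureCounts. The labels give Trizol and an Illumina TruSeq kit, the methods an miRNeasy kit, an NEBNext kit and biological triplicates, while each group here has 4 libraries. The genome build and annotation are not given in the sources used here. Which of these tools made the counts is not settled by the sources. If it was StringTie, its estimates divide coverage between overlapping genes, so members that share their strand with another gene are named.

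Each pair of groups was fitted by itself with edgeR 4.0.16 in R 4.3.3 (filterByExpr, TMM, quasi-likelihood test, Benjamini-Hochberg over all genes tested). A gene passed at an adjusted p under 0.05, and the further limit of 0.5 on the absolute log2 fold change is that of the study. The standard error is the absolute log2 fold change over the square root of F, with 95% intervals. CPM were scaled by TMM over all 12 libraries. Positions, lengths and GC content came from GENCODE v29 (GRCh38), in which all 40 members were found by identifier. Alternatives were DESeq2 1.42.0, limma-voom 3.58.1, other scalings and filters, 1 fit of all libraries, a replicate block, counts divided by 4, removal of trends with GC or length (lowess span 0.3), and each library left out. Summing NUSAP1 and PRC1 with the gene on the same strand was added after seeing the data. The members, lists and tests were chosen with earlier results of these data known. By rule 25 members were named: representatives of each role, the 3 lowest and 3 highest fold changes of each comparison, those that moved against most, and those past 0.5. Values of other members are given beside them. Of the other lists, up to 3 in each direction were eligible to be named. For 12 members the table lists pseudogenes or near copies, which held at most 2.45% of the member's level (CKS1B). Replicate numbers do not pair the libraries: same-numbered libraries' deviations from group means correlated between -0.025 and 0.065.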

Additional observations from a re-analysis of the deposited data

Results flagged for a closer look

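In 15 of the 120 groups of 4 libraries (40 members in 3 groups), the highest or lowest library lay apart from the others, its gap to the nearest being over Dixon's 95% critical share of the whole range. About 6 would do so by chance.

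WT hypoxia replicate 2 was the library apart in 9 of the 15. It was the highest for CCNB1 (gap 0.854 of the range), CDK1 (0.877), CDC25C (0.838), PLK1 (0.904), PTTG1 (0.95), NDC80 (0.906), KIF2C (0.9) and HMGB2 (0.843), and the lowest for BUB1B (0.852). For PLK1 and BUB1B the range itself was narrow, from 198 to 203 CPM and from 79.6 to 82.7 CPM. For CDK1, CDC25C, PTTG1, NDC80 and KIF2C this library decides whether the fall in hypoxia passes the test. What set it apart was not tested.

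WT hypoxia replicate 3 was the highest for CENPE (0.872). WT normoxia replicate 1 was the highest for ANLN (0.962), and WT normoxia replicate 4 was the lowest for BUB3 (0.831) and NDC80 (0.923). In KO cells, replicate 1 was the highest for BUB1 (0.919) and replicate 4 the lowest for FOXM1 (0.877).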

How the results depend on the processing

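The number of members lower in hypoxia was between 17 and 33 and in KO cells between 23 and 32 over all alternatives run, and the median log2 fold change of the members stayed below 0 in both. A replicate block gave 24 lower and 1 higher in hypoxia, 31 lower and 1 higher in KO cells, and 8 lower and 12 higher for KO cells against hypoxia. Leaving out 1 library, the members past 0.5 in hypoxia numbered from 0 to 1, those higher in KO cells from 1 to 2, and those lower in KO cells than in hypoxia from 3 to 6. The cause of each change below was not tested unless the alternative itself drops samples. With the length trend removed, 2 members passed 0.5 in KO cells, and with the GC trend removed 0 did so against hypoxia, where MYBL2 had. The members' median against hypoxia was 0.012 with the GC trend removed, 0.012 with overlapping genes summed, and from -0.0024 to 0.066 on leaving out 1 library.

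For the 25 members named by rule, and not the other members given above, 1431 values under an alternative were compared. Of these, 1319 kept their direction and their side of the threshold, 61 no longer passed, 21 newly passed and 30 changed sign. All that changed sign were in members that did not pass. In hypoxia, MKI67 turned to 0.019 with upper-quartile scaling and 0.039 without the length trend, and ranged from -0.097 to 0.073 with 1 library out. ANLN turned to 0.053 without the GC trend. PRC1 turned to 0.045 with upper-quartile scaling, 0.010 with at least 10 counts in every library, 0.015 with counts divided by 4 and 0.019 without the GC trend, and ranged from -0.038 to 0.014. With the overlapping gene summed, PRC1 stood at -0.13 there. AURKB turned to 0.018 with upper-quartile scaling and ranged from -0.071 to 0.0014. In KO cells, MKI67 turned to -0.051 without the length trend and ranged from -0.016 to 0.17. CENPF turned to -0.012 with no filter and -0.074 without the length trend, and ranged from -0.029 to 0.087. Against hypoxia, MKI67 turned to -0.093 without the length trend and ranged from -0.0096 to 0.13. CDK1 ranged from -0.15 to 0.0062, CDC20 turned to 0.041 without the GC trend, and NUSAP1 turned to -0.16 with the overlapping gene summed and ranged from -0.17 to 0.29. Of alternatives that shift all genes, none moved their median by over 0.1.

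With counts divided by 4, 23 members were lower in hypoxia and 29 in KO cells, as in the main fit. How far depth or the spread between the 4 libraries of a group limits these results was not otherwise tested. Intervals of about 0.1 to 0.2 on either side of most fold changes mean that members with shifts of this size can fall on either side of the threshold.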
